A study of Mus musculus with 12 samples.

Results

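The hippocampus of epileptic mice was compared 24 h after an intraperitoneal injection of lipopolysaccharide (LPS) with the same tissue 24 h after saline, across all genes measured at that time. A gene counted as measured when its array probe was well above background on all 3 arrays of either group. This left 18118 genes of the 27370 on the array, and 6 of the study's 12 arrays. The mice were male C57BL/6N aged 12 weeks, and every mouse had received 50 nl of 20 mM kainate in the left dorsal hippocampus, so saline and LPS mice alike were epileptic. The saline 24 h and LPS 24 h groups (3 arrays each) differ by the injection given 3 weeks after kainate, saline or LPS at 100 µg/kg. The other arrays are saline 4 h and LPS 4 h (3 each). The labels name whole hippocampus without its side, and no group without kainate was used here.

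LPS is the endotoxin of Gram-negative bacteria. Toll-like receptor 4, with CD14 and MD-2, senses it on myeloid and endothelial cells and signals through NF-kappaB to cytokine and chemokine genes and through TRIF to type I interferons. Secreted interferon then acts through JAK kinases and the factors STAT2 and IRF9 on a further set of genes. From the blood, such a stimulus reaches the brain largely through its vessels, choroid plexus and microglia.

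Levels are the processed signal of a probe as a percent of the 75th percentile of its array (100 is that percentile), in the order of replicates 1, 2 and 3. Differences are log2 values, LPS minus saline, from 1 limma model of all 12 arrays, with their standard error (SE); p-values were adjusted by Benjamini-Hochberg across the 18118 genes, and those under 0.05 were called. At 24 h the 75th percentile was 739.7 to 862.1 intensity units on the saline arrays and 721.1 to 953.4 on the LPS arrays, with 65.14% to 66.44% and 69.04% to 70.92% of probes well above background. The arrays of a group were very close: the median SD of a gene between arrays was 0.067 log2 units in saline and 0.07 in LPS. Probes spotted at least 5 times give a measure of spot noise. In saline (201 such probes) the spots of 1 array had a median SD of 0.082 and a single spot had a median SD of 0.065 between arrays. In LPS (208 probes) these were 0.068 and 0.093. The means of these probes had a median SD between arrays of 0.033 in saline and 0.079 in LPS. The SD expected from spot noise alone was 0.026 and 0.022, so the LPS arrays differed by more than spot noise. That the 3 arrays of a group hold separate samples rests on the labels alone, and the p-values measure the spread between these arrays, which may be technical.

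Some values bear on every comparison below. Of 18 measured genes typical of striatum 18 were called lower in LPS, and of 18 typical of thalamus and habenula 14 were higher and 2 lower; both lists were put together after values had been seen and have no test. The mean log2 level of the striatal genes was 0.09 to 0.11 on the saline 24 h arrays and -1.13 to -1.11 on the LPS 24 h arrays, against -1.48 to -1.4 on saline 4 h and -1.73 to -1.72 on LPS 4 h arrays. The thalamic genes averaged -1.92 to -1.87 in saline 24 h, -1.14 to -1.06 in LPS 24 h, -0.76 to -0.62 in saline 4 h and -0.91 to -0.76 in LPS 4 h. Choroid plexus and ependyma markers were called higher in LPS (18 of 21 measured) and red blood cell markers lower (6 of 8, 1 higher). The saline 24 h arrays thus stood apart from the other 9 arrays, high in striatal and low in thalamic genes. In whole tissue, fewer cells of a type and less RNA per cell cannot be told apart.

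**Figure D1:**
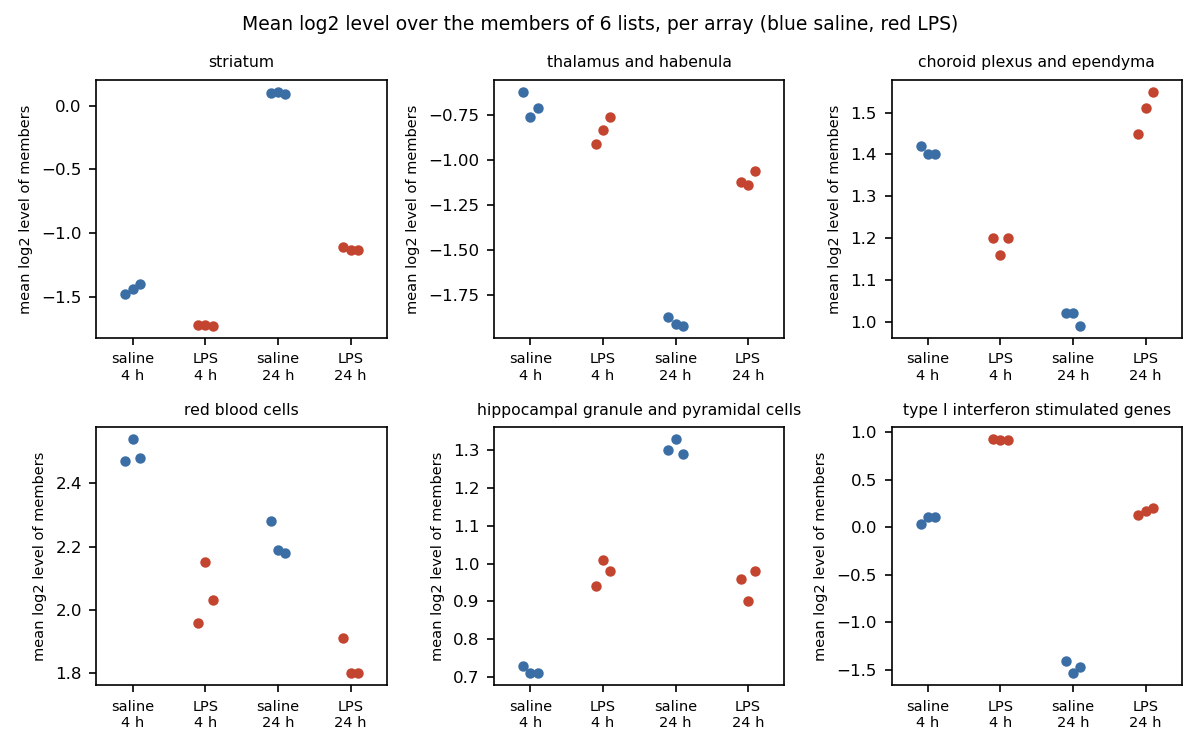
Mean log2 level (y axis, log2 of signal over the array's 75th percentile) of the measured members of 6 gene lists on each of the 12 arrays, by group (1 point per array). The saline 24 h arrays are the highest for striatum (0.09 to 0.11) and the lowest for thalamus and habenula (-1.92 to -1.87) and for type I interferon stimulated genes (-1.54 to -1.41).

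The saline groups differed from each other at 14617 genes, 80.7% of those tested. The 4 h and 24 h arrays were scanned in different runs, so time and scan run cannot be told apart between them. The saline 4 h arrays were the dimmest, with a 75th percentile of 371.4 to 396.4 and 53.86% to 55.01% of probes well above background. On the LPS 4 h arrays these were 669.3 to 739.3 and 58.16% to 61.43%. The lowest level well above background was 3.535 to 3.599 on saline 4 h arrays and 1.184 to 1.576 on saline 24 h arrays. Against saline 4 h, the LPS 24 h arrays were called higher at 6246 genes (34.5%) and lower at 8438 (46.6%). Of the 3942 genes called higher against saline 24 h, 1542 were also called higher against saline 4 h and 1858 were called lower. Of the 4657 called lower, 2678 were also lower against saline 4 h and 1455 were higher. This other control was added after the data had been seen, and its values stand below beside the groups they touch.

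At 24 h after LPS, transcripts of acute phase, interferon, antigen presentation and phagocyte genes were higher than in saline, and many neuronal transcripts were lower by small amounts. Of the 18118 genes, 3942 were called higher (21.8%) and 4657 lower (25.7%), 47.5% in all. Rises were the larger changes: 1256 genes were called higher by at least 1.5-fold (6.93%) and 250 lower (1.38%), and at 2-fold the counts were 512 and 44. The median difference of all genes was -0.017 and the median size of a difference was 0.179. All LPS arrays lay above all saline arrays at 26.5% of genes and below them at 29.6%. With normexp background correction 1709 genes were called higher and 1941 lower.

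The largest rise of all was that of Saa3, serum amyloid A3, an acute phase protein. Saa3 was at 0.975, 1.08 and 1.49 in saline and 163, 172 and 176 in LPS, and only 1 saline array was well above background (difference 7.19, SE 0.13, adjusted p = 5.8e-10). Among genes detected in both groups Cfb, factor B of the alternative complement pathway, rose most. Its level was 9.78, 9.76 and 8.61 in saline and 90, 95.4 and 90.7 in LPS (3.3, SE 0.05, adjusted p = 3.41e-10). Lcn2, the siderophore-binding lipocalin 2 of neutrophils and reactive astrocytes, was at 8, 7.18 and 7.29 in saline and 53.4, 55 and 62.6 in LPS (2.93, SE 0.14, adjusted p = 1.99e-07). The groups did not overlap at any of the 3 genes, and each was also called higher than in saline 4 h. Saa3, well above background on no saline 4 h array, was at least 46.8-fold higher, Cfb was higher by 1.43 and Lcn2, detected there on 2 of 3 arrays, by 3.74. Their probes lie at chr7:53968031-53968090, chr17:34993502-34993858 and chr2:32241037-32241281 of mm9, the build of the array files.

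The 15 largest rises among genes well above background on at least 2 arrays of both groups were those of Cfb, Ifi44, Cxcl13, Lcn2, Gpx3, Cd244a, Phf11a, Irf7, Acod1, Oasl1, Plin4, Ccl7, Lao1, Zbp1 and Ccl12. Gpx3, the secreted glutathione peroxidase, was at 20.6, 20 and 18.3 in saline and 141, 139 and 142 in LPS (2.84, SE 0.17). Acod1, which makes the macrophage metabolite itaconate, was at 1.85, 1.15 and 1.7 in saline and 9.98, 10.4 and 9.51 in LPS (2.7, SE 0.15). Plin4, a lipid droplet coat protein, was at 70.8, 67.1 and 70.4 in saline and 430, 450 and 417 in LPS (2.64, SE 0.04). Ifi44 was uneven between arrays, at 3.01, 0.417 and 2.01 in saline and 7.33, 14 and 17.2 in LPS (3.15, SE 0.64, adjusted p = 0.00261). A call and no overlap between the arrays of the 2 groups were conditions for this list and for that of the falls below. Saline arrays of 24 h well above background were 2 of 3 for Acod1 and for Ifi44. Against saline 4 h Acod1 (0.94) was called higher as well, and so was Gpx3, which was well above background there on only 1 of 3 arrays, whereas Plin4 (-0.06) and Ifi44 (-0.19) were not called. 

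**Figure D2:**
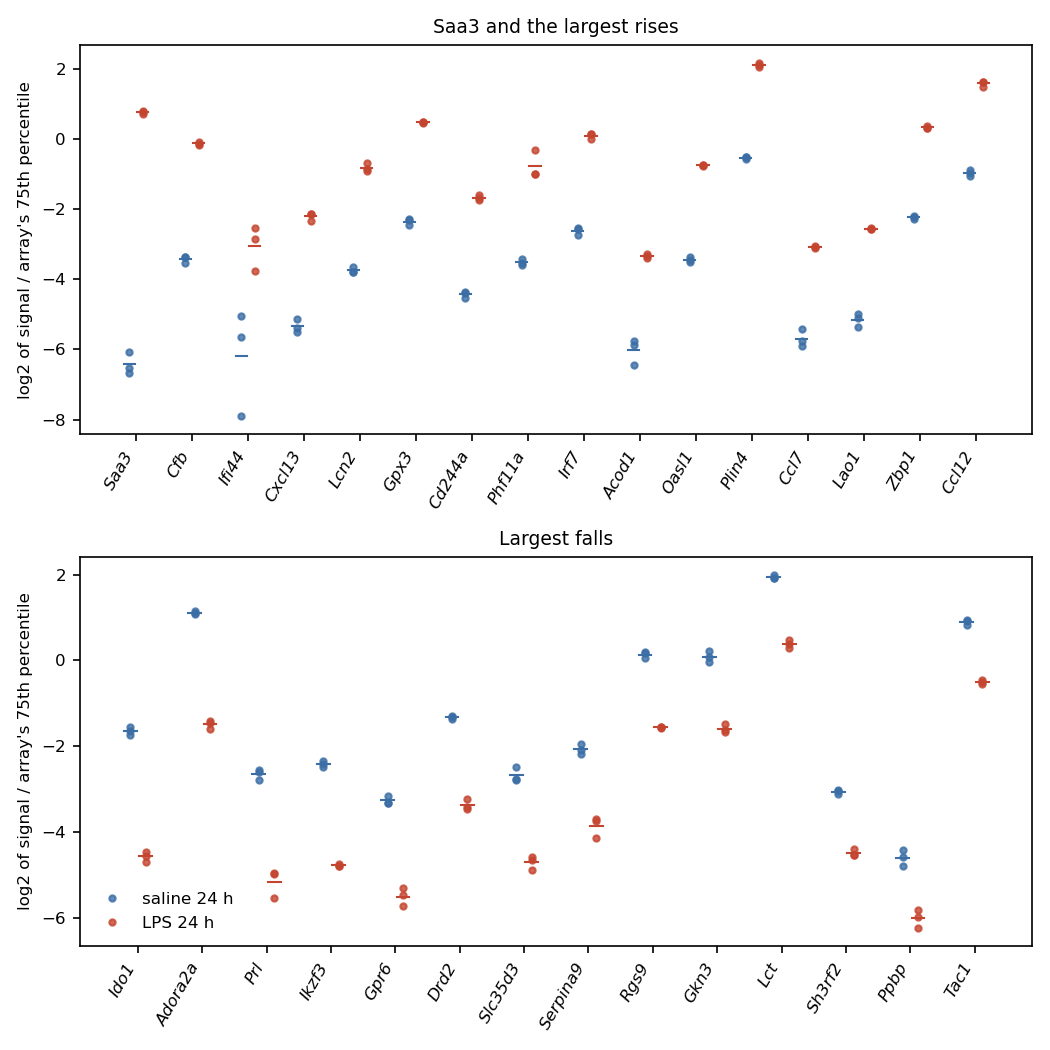
Levels of the genes with the largest rises and the largest falls on the 3 saline 24 h and 3 LPS 24 h arrays, as log2 of signal over the array's 75th percentile (1 point per array). The groups do not overlap at any gene shown, which was a condition of choice for all but Saa3. Cfb (3.3) and Ido1 (-2.93) lead the 2 directions among genes detected in both groups.

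Among the 15 largest falls were those of Ido1, Adora2a, Prl, Ikzf3, Gpr6, Drd2, Slc35d3, Serpina9, Rgs9, Gkn3, Lct, Sh3rf2, Ppbp and Tac1. Ido1, the first enzyme of the kynurenine pathway of tryptophan breakdown, was at 31.8, 34.4 and 30.1 in saline and 4.54, 3.87 and 4.26 in LPS (-2.93, SE 0.07, adjusted p = 2.33e-09). It was lower against saline 4 h too (-1.44). Adora2a, an adenosine receptor of striatal neurons, was at 217, 222 and 213 in saline and 36.6, 37.6 and 32.9 in LPS (-2.61, SE 0.06). Drd2, the dopamine D2 receptor, was at 38.7, 40.3 and 40.6 in saline and 9.35, 9.11 and 10.7 in LPS (-2.04, SE 0.16). The LPS levels of both lay above saline 4 h, by 0.39 and 0.92, where Drd2 was well above background on 2 of 3 arrays. These, with Gpr6, Slc35d3, Rgs9 and Tac1, are on the striatal list given above. Prl, the pituitary hormone prolactin, was at 16.3, 17 and 14.6 in saline and 3.2, 3.17 and 2.15 in LPS (-2.51), and Gh, growth hormone, fell by 1.47, with 1 of 3 LPS arrays well above background; the other 5 measured pituitary genes were not called. The part of neighbouring tissue in these falls was not tested.

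Some genes were well above background on all 3 arrays of 1 group and on none of the other, so that only a bound on their fold can be given; it sets the bright group against the lowest signal well above background on the dim arrays, or the probe's own signal there where that was higher. Lhx8, a transcription factor of forebrain cholinergic neurons, was at least 4.36-fold lower in LPS (adjusted p = 0.00481). The 7 bounds next in size were all on the higher side: Ifi207 (at least 4.3-fold), Pkn3 (4.19), Ms4a4d (4), Oas3 (3.96), Fpr1 (3.83), Siglec1 (3.76) and Chil4 (3.48). Siglec1, the sialoadhesin of interferon-exposed macrophages, was at 0.965, 1.11 and 0.767 in saline and 4.86, 5.3 and 5.18 in LPS. Fpr1 is the formyl peptide receptor by which phagocytes sense bacterial peptides. Against saline 4 h Lhx8 was well above background in neither group, so no comparison could be made. Ifi207, Pkn3, Ms4a4d, Oas3, Fpr1 and Chil4 were well above background on no saline 4 h array either and were at least 1.64, 1.61, 1.59, 1.51, 1.64 and 1.33-fold higher in LPS 24 h, and Siglec1, detected there on 2 of 3 arrays, was called higher (0.63). 

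The genes were then read by 51 lists of pathways and cell types, with 955 of 1018 entries measured. Over 50% of the measured members were called higher in 26 lists and lower in 9. Relative to the median of all genes, 32 of the 51 list medians had the opposite sign when saline 4 h was the control, and with that control 10 lists were mostly higher and 22 mostly lower. In each list the members named are those with the smallest adjusted p, and a few that moved against their list or were not called, which were named after their values had been seen.

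**Figure D3:**
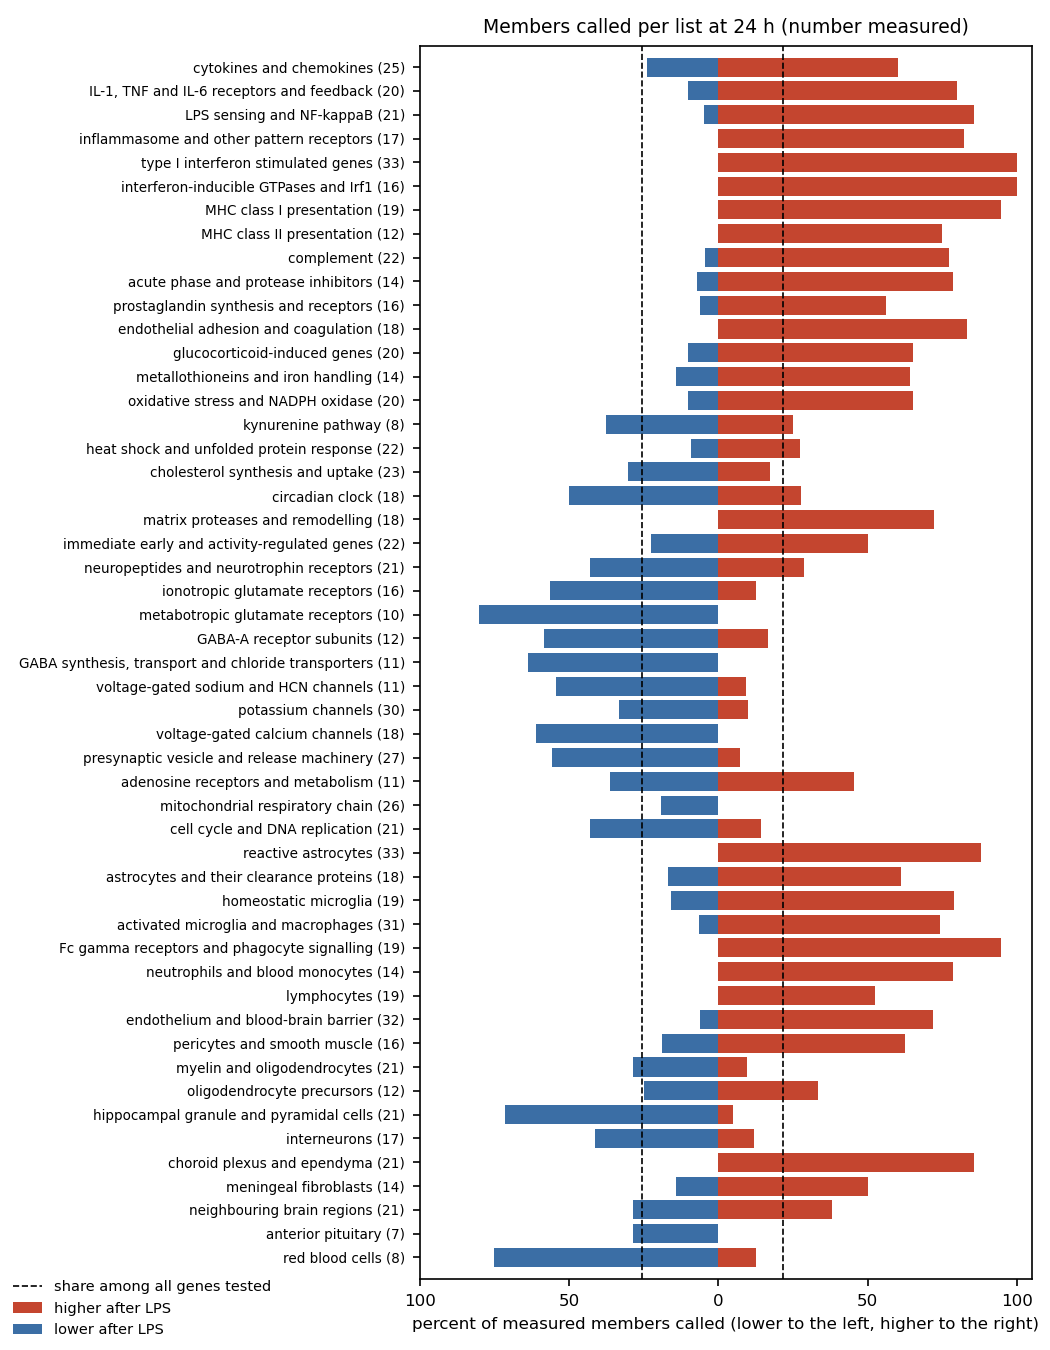
Percent of the measured members of each of 51 gene lists called higher or lower in LPS at 24 h, beside the shares among all genes tested (21.8% higher, 25.7% lower). Type I interferon stimulated genes and the list of interferon-inducible GTPases and Irf1 reach 100% higher, and metabotropic glutamate receptors reach 80% lower.

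Type I interferon stimulated genes, which restrict viruses and amplify their sensing, were all higher: 33 of 33 measured members were called, 32 by at least 1.5-fold, with a median difference of 1.54. Oasl1, an oligoadenylate synthetase-like protein, was at 8.85, 9.79 and 9.08 in saline and 60.2, 58.4 and 59.9 in LPS (2.69, SE 0.04, adjusted p = 2.76e-10). Irf7, the factor that drives type I interferon genes, was at 17, 17.2 and 15.1 in saline and 111, 112 and 101 in LPS (2.72, SE 0.07). Isg15, a ubiquitin-like modifier, was at 56.4, 56.4 and 59.7 in saline and 251, 249 and 263 in LPS (2.15, SE 0.04). The groups did not overlap at these 3 genes. Oas2 rose by 2.5, Ifi27l2a by 2.28, Oas1a by 2.12, Oasl2 by 1.8 and Ifit3 by 1.46. Each slide held 1 saline and 1 LPS array, and within the 3 slides the list's median relative to all genes was 1.441, 1.576 and 1.458.

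**Figure D4:**
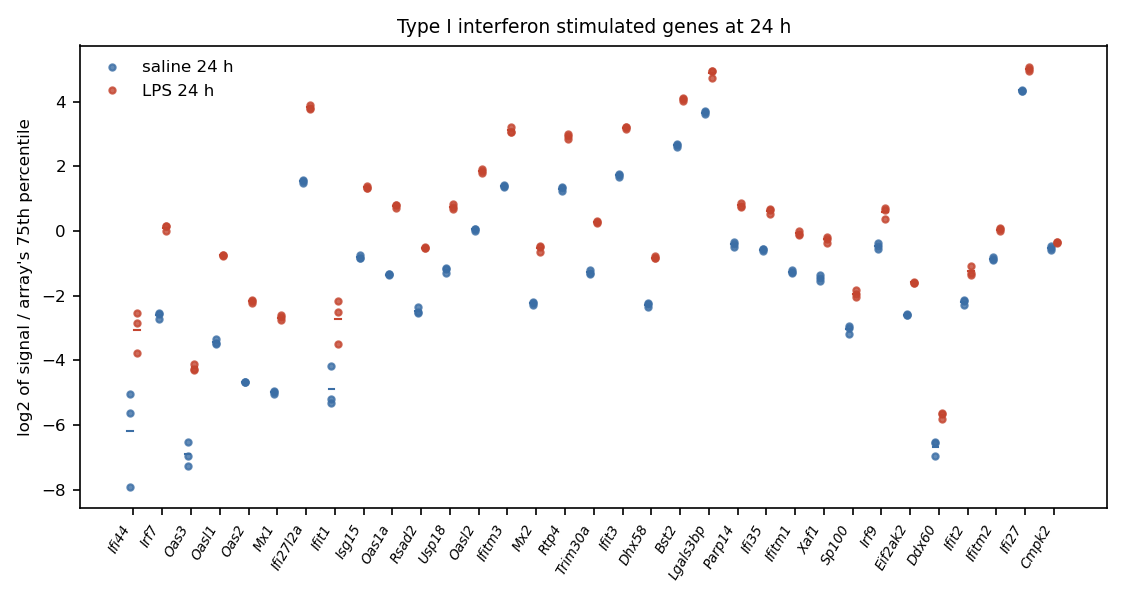
Levels of the measured type I interferon stimulated genes on the 3 saline 24 h and 3 LPS 24 h arrays, as log2 of signal over the array's 75th percentile (1 point per array). All 33 genes are called higher in LPS, with a median difference of 1.54.

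Against saline 4 h the interferon list stood level, with 13 members called higher and 15 lower and a median 0.03 above that of all genes. The saline 24 h arrays were themselves below saline 4 h, by a relative median of -1.54. Irf7 (1.94), Oasl1 (0.81), Isg15 (0.79), Oas2 (0.52) and Oas1a (0.35) were called higher than either saline group. Ifi27l2a (-1.04), Ifit3 (-0.82) and Oasl2 (-0.66) were called lower than saline 4 h. 

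The list of interferon-inducible GTPases, which attack the vacuoles of intracellular pathogens, also holds the transcription factors Irf1 and Irf8. Its members were all called higher too (16 of 16, median 1.17). Gbp2 was at 64.9, 68.8 and 67.9 in saline and 194, 188 and 192 in LPS (1.51, SE 0.03, adjusted p = 7.31e-10). Iigp1 was at 56.5, 56.7 and 59.5 in saline and 186, 174 and 180 in LPS (1.64, SE 0.03). Neither gene's groups overlapped. Gbp6 rose by 1.58, Tgtp1 by 1.43, Igtp by 1.24 and Irgm2 by 1.15. With saline 4 h as control 7 members were called higher, Gbp2 (0.72) and Tgtp1 (0.48) among them, and 7 lower, Iigp1 (-0.45) and Igtp (-0.59) among them. 

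Promoters are shown because these members moved together. The core of the interferon-stimulated response element, taken as 2 copies of GAAA parted by any 2 bases (TTTC on the other strand), and the gamma-activated sequence TTCNNNGAA, which reads alike on both strands and can overlap it, were searched in the 250 bases before each RefSeq start (GRCm38.p6). Among members called higher, the response element was found at 10 of 24 interferon genes with a listed promoter (41.7%). It was found at 8 of 11 such members of the GTPase list (72.7%) and 2 of 15 of MHC class I (13.3%). It was found at 3.46% of all 27025 genes with a promoter, 3.18% of genes tested, 8.04% of genes higher by at least 1.5-fold and 2.95% of genes called lower. The gamma-activated sequence was found at 16.7%, 63.6% and 13.3% of the same lists and at 8.13% of all genes. For 5 members of these lists the 150 bases before the start are printed, 5′ to 3′ on the gene's strand. Exact matches to the response element core are in capitals. They are chr4:156200819-156200968 (minus strand) for Isg15, chr5:120907526-120907675 (minus) for Oas1a, chr3:142620513-142620662 (plus) for Gbp2, chr5:114923090-114923239 (plus) for Oasl1 and chr17:35262944-35263093 (plus) for H2-D1.
Isg15: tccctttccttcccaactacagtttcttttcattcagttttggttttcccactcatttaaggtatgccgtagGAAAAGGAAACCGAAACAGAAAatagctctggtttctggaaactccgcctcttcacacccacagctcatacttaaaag
Oas1a: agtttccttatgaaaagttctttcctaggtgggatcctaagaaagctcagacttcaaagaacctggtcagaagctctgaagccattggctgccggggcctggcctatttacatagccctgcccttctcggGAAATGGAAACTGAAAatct
Gbp2: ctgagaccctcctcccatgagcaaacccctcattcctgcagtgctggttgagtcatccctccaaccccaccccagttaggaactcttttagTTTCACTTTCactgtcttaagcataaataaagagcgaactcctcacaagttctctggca
Oasl1: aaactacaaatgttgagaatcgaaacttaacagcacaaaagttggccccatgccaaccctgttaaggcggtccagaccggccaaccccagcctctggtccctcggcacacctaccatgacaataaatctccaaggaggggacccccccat
H2-D1: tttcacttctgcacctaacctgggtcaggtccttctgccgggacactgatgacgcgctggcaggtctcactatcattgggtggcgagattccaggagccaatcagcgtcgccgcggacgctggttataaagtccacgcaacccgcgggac
Isg15 holds 3 overlapping matches that begin 78, 72 and 66 bases before the start, Oas1a holds 2 (at 20 and 14 bases) and Gbp2 holds 1 (at 59 bases). Oasl1, with the smallest adjusted p of the interferon list, and H2-D1 hold no exact match in the 250 bases searched. Only this exact core was searched, so elements that depart from it are missed here and in the shares above.

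MHC class I, which displays peptides to CD8 T cells, was called higher at 18 of 19 members (median 0.93). H2-D1, a heavy chain, was at 1750, 1740 and 1800 in saline and 4350, 4180 and 4360 in LPS (1.28, SE 0.03, adjusted p = 1.41e-09). B2m, the shared light chain, was at 621, 611 and 612 in saline and 1040, 1090 and 1110 in LPS (0.82, SE 0.03). Both were higher on every LPS array. H2-K1, H2-Q4, H2-Q7 and H2-T23 rose by 1.15, 1.24, 1.34 and 1.17; near-identical class I genes can share probe signal, so single members are uncertain. The chaperone Calr was the member not called (0.05). MHC class II, which serves CD4 T cells, was higher at 9 of 12 (median 0.45): the thiol reductase Ifi30 by 1.62, the protease Ctss by 0.78, the costimulator Cd86 by 0.75 and H2-Ab1 by 0.44. H2-Aa, H2-DMa and H2-Ob were not called. With saline 4 h as control the relative medians were -0.16 for class I and -0.27 for class II, with H2-K1 at -1.29, B2m at -0.68 and Ctss at -1.1, while H2-D1 was not called (-0.01) and Ifi30 stayed higher (1.05). 

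Acute phase proteins and protease inhibitors were called higher at 11 of 14 members (median 1.44). Serpina3n, a serine protease inhibitor of reactive astrocytes, was at 517, 527 and 517 in saline and 1120, 1150 and 1150 in LPS (1.13, SE 0.02, adjusted p = 1.34e-09). Cp, the ferroxidase ceruloplasmin, was at 70.5, 66.3 and 68.5 in saline and 180, 176 and 181 in LPS (1.39, SE 0.03). The groups did not overlap at either. Saa2 rose by 2.34, Saa1 by 1.71 and the protease trap A2m by 1.14, and Serpina3g fell by 0.49. The direction of the list held against saline 4 h, with 11 higher, 1 lower, a relative median of 0.83, Serpina3n at 1.46 and Cp at 1.45. Serpina3g turned there. 

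Complement, which tags microbes and synapses for phagocytosis, was called higher at 17 of 22 members and lower at 1 (median 0.81). C3, the central component, was at 639, 676 and 649 in saline and 1630, 1600 and 1490 in LPS (1.26, SE 0.04). The inhibitor Serping1 rose by 1.13, C4b by 0.91, C1qa of the initiating complex by 0.88 and the receptor chain Itgam by 0.72. Itgax, another receptor chain, moved the other way, at 83.5, 82.9 and 83.7 in saline and 43.5, 46.1 and 45.6 in LPS (-0.89, SE 0.04, adjusted p = 5.35e-08). In the comparison with saline 4 h 9 members were higher and 12 lower: C3 (-0.74), C1qa (-0.85) and Itgam (-0.57) were called lower, and Cfb (1.43) and Serping1 (0.92) stayed higher. 

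Cytokines and chemokines were divided, with 15 of 25 measured members called higher and 6 lower (median 0.69). Ccl2, which draws monocytes, was at 23, 24.1 and 22 in saline and 132, 127 and 111 in LPS (2.42, SE 0.06, adjusted p = 2.65e-09). Cxcl10, the interferon-induced attractant of T cells, was at 63.3, 69.3 and 64.7 in saline and 317, 342 and 351 in LPS (2.36, SE 0.05). Cxcl13, which attracts B cells, was at 2.4, 2.87 and 2.2 in saline and 20, 22.6 and 22.9 in LPS (3.14, SE 0.11). In all 3 the LPS arrays stood clear of saline, and so they did for the monocyte attractants Ccl7 (2.62) and Ccl12 (2.55), for Ccl5 (2.27) and for Cxcl16 (1.32). Il1b, the inflammasome-processed cytokine, was at 4.46, 4.24 and 4.12 in saline and 12.7, 13.8 and 13.8 in LPS (1.65, SE 0.05, adjusted p = 4.09e-09). Tnf was at 1.7, 1.58 and 1.38 in saline and 4.36, 4.16 and 3.75 in LPS (1.4, SE 0.09), with 2 of 3 saline arrays well above background, and Il6, Csf3, Cxcl2, Ccl11 and Lif did not meet the detection rule.

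Il1b (1.17), Cxcl13 (0.46), Ccl12 (0.31) and Ccl2 (0.15) were called higher against saline 4 h too. Ccl7 and Tnf were well above background on no saline 4 h array and were at least 3.33 and 1.15-fold higher in LPS 24 h. Cxcl10 was not called (-0.01), and Ccl5 (-1.63) and Cxcl16 (-0.47) were called lower. The relative median of the list was 0.70 with saline 24 h as control and -0.49 with saline 4 h.

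Receptors and feedback regulators of IL-1, TNF and IL-6 were called higher at 16 of 20 members and lower at 2. Socs3, which ends gp130 signalling, was at 126, 121 and 119 in saline and 339, 350 and 348 in LPS (1.5, SE 0.03, adjusted p = 7.6e-10). Il1rn, the natural antagonist of IL-1, was at least 1.56-fold higher. Il18bp rose by 1.1, the oncostatin M receptor Osmr by 1.0, and Tnfrsf1b by 0.96, and Socs2 and Il1rap fell by 0.32 and 0.19. Against saline 4 h Socs3 (-0.31) and Tnfrsf1b (-1.17) were called lower, and no fold is given for Il1rn, which was well above background on none of those arrays. 

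Genes of LPS sensing and NF-kappaB were called higher at 18 of 21 and lower at 1 (median 0.47). The receptor Tlr2 and the NF-kappaB cofactor Bcl3 rose by 1.06 and 1.06, Nfkb2 by 0.97, the LPS-binding protein Lbp by 0.84 and the adaptor Myd88 by 0.74. Tlr4, the LPS receptor, was at 3.64, 3.31 and 3.21 in saline and 3.71, 4.62 and 5.89 in LPS; it was not called (0.46, adjusted p = 0.116). Other pattern receptors were called higher at 14 of 17, with none called lower by limma. Zbp1, a sensor of Z-form nucleic acid, was at 21.8, 21.6 and 20.5 in saline and 131, 124 and 124 in LPS (2.57, SE 0.04). The RNA sensors Ddx58 and Ifih1 rose by 1.43 and 1.05, and Casp4, which binds cytosolic LPS, and the pore-forming Gsdmd rose by 1.38 and 1.0. Tlr9, Clec7a and Nlrp3 were not called. Both relative medians stayed above 0 against saline 4 h (0.27 and 0.13), although Tlr2 (-0.81) and Bcl3 (-1.55) were lower there and Zbp1 (-0.03) was not called. 

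Microglial genes were mostly higher. Of the homeostatic markers 15 of 19 were called higher and 3 lower (median 0.37). Aif1, the protein Iba1, was at 900, 869 and 881 in saline and 1540, 1490 and 1570 in LPS (0.80, SE 0.03, adjusted p = 6.59e-08). The fractalkine receptor Cx3cr1 rose by 0.69, Olfml3 by 0.72 and Tmem119 by 0.67. P2ry12, the ADP receptor of surveying microglia, went the other way, at 58.7, 55.3 and 57.2 in saline and 33.3, 33.2 and 40.8 in LPS (-0.68, SE 0.10, adjusted p = 0.000479), and Gpr34 and Slc2a5 fell as well, by 0.12 and 0.13. The P2ry12 groups did not overlap. With saline 4 h as control 5 homeostatic markers were higher, Cx3cr1 (0.59) among them, and 12 lower, Aif1 (-1.46) and Tmem119 (-0.46) among them. 

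Activated microglia and macrophage markers were called higher at 23 of 31 and lower at 2 (median 0.52). Spp1, osteopontin, was at 910, 940 and 945 in saline and 3100, 3070 and 2900 in LPS (1.7, SE 0.03). Tspo, the target of imaging ligands for neuroinflammation, was at 249, 245 and 259 in saline and 626, 612 and 563 in LPS (1.26, SE 0.04). Ms4a6c rose by 2.11, Ms4a6d by 1.63, Gpnmb by 0.99 and the lysosomal protein Cd68 by 0.36, while Itgax and Lpl were the members that fell. Fc gamma receptors and their signalling partners, which bind antibody-coated targets, were called higher at 18 of 19 (median 0.82). Fcgr4, an activating receptor, was at 22.8, 22.3 and 22.2 in saline and 112, 110 and 122 in LPS (2.35, SE 0.07); Fcgr1 rose by 1.44 and the inhibitory Fcgr2b by 1.08. When set against saline 4 h, Ms4a6c (1.5), Ms4a6d (0.80) and Fcgr4 (0.69) stayed higher, and Spp1 (-0.81), Tspo (-0.73) and Fcgr1 (-0.80) were lower. The activated list as a whole was higher at 10 and lower at 17 there.

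Markers of neutrophils and blood monocytes were called higher at 11 of 14 (median 1.15). Chil3, a chitinase-like secreted protein, was at 8.09, 7.91 and 8.44 in saline and 47.4, 45.7 and 41.9 in LPS (2.46, SE 0.06). Plac8 was at 6.24, 7.11 and 6.9 in saline and 38.4, 39.3 and 37.4 in LPS (2.51, SE 0.05). The groups of both stood far apart, and S100a9, a calprotectin subunit, rose by 1.12; Ltf, Mpo and Mmp9 were not called. The summed level of the red blood cell markers was 25310 to 26760 in saline and 16070 to 16810 in LPS. That of the neutrophil and monocyte list was 1105 to 1173 in saline and 2411 to 2591 in LPS. Chil3 and Plac8 make up little of this sum, and the list holds Ly6c1, which is also on the endothelial list. The list's relative median stayed above 0 against saline 4 h (0.985), where it was higher at 12 and lower at 1. These 12 include Mpo and Mmp9, which had the opposite sign against saline 24 h and were near background in saline 4 h. Lymphocyte markers were called higher at 10 of 19, with Cd8b1, a CD8 chain, at 13.9, 13.3 and 12.7 in saline and 24.5, 22.8 and 24.9 in LPS (0.85), and turned against saline 4 h, with 3 higher and 11 lower.

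Reactive astrocyte markers were called higher at 29 of 33 (median 0.91). Timp1, a metalloprotease inhibitor, was at 94.4, 96.8 and 91.9 in saline and 327, 289 and 292 in LPS (1.68, SE 0.05). The matrix protein Fbln5 rose by 1.74, the small heat shock protein Hspb1 by 1.42 and the hyaluronan receptor Cd44 by 0.69. Gfap, the filament by which astrogliosis is usually scored, was already high in saline, at 2020, 2350 and 2110 in saline and 2760, 2920 and 2880 in LPS, and rose less than 1.5-fold (0.41, SE 0.05, adjusted p = 0.000153). Nes, Ptgs2, Amigo2 and S100a10 were not called. With saline 4 h as control 12 markers were higher, Hspb1 (0.98) and Cd44 (0.79) among them, and 17 lower, Gfap (-1.3) and Timp1 (-0.26) among them. 

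General astrocyte genes were called higher at 11 of 18 and lower at 3. The sodium pump subunit Atp1b2 rose by 0.54 and the water channel Aqp4 by 0.26, and Gja1, connexin 43, fell by 0.56. The potassium channel Kcnj10 (0.16, adjusted p = 0.0949) and the glutamate transporter Slc1a2 (-0.16, adjusted p = 0.121), which clear both from the extracellular space, were not called, and their groups overlapped. Of the 4 Slc1a2 probes 2 were called higher and 0 lower, and its direction turned with the mean of its probes. 

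Endothelial and barrier genes were called higher at 23 of 32 and lower at 2 (median 0.35). Cldn5, the tight junction claudin, was at 1130, 1260 and 1150 in saline and 1790, 1840 and 1600 in LPS (0.57, SE 0.07, adjusted p = 7.98e-05). Ly6a rose by 1.64, Emcn by 0.64 and Esam by 0.67, and Itm2a and Tjp1 fell by 0.58 and 0.17 (Tjp1 was at 0.002 with the mean of its probes). Adhesion and coagulation genes were higher at 15 of 18. Icam1, which arrests leukocytes on the vessel wall, was at 95.6, 90.3 and 92.8 in saline and 182, 185 and 202 in LPS (1.03, SE 0.04); Pecam1 rose by 0.84, Vwf by 0.76 and the thrombin receptor Thbd by 0.68. Both relative medians stayed above 0 against saline 4 h (0.32 and 0.30), with Thbd at 2.21 and Vwf at 1.19, but Icam1 (-1.67) and Cldn5 (-0.56) were lower there. 

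Lipid mediator genes were called higher at 9 of 16 and lower at 1: the prostaglandin E receptor Ptger4 by 1.21, Alox5 and Alox5ap of the leukotriene pathway by 1.03 and 1.01, and the prostaglandin D synthase Ptgds by 0.90. Ptgs2, cyclooxygenase 2, was not called (-0.19, adjusted p = 0.0917). Of the glucocorticoid-induced genes 13 of 20 were higher and 2 lower. Beside Plin4, the cell cycle inhibitor Cdkn1a rose by 1.29 and Hif3a by 1.02, but Fkbp5, a sensitive target of the receptor, by 0.12. Hif3a was lower than saline 4 h (-1.57) and Cdkn1a higher (0.80). NADPH oxidase and redox genes were higher at 13 of 20 (Ncf1 by 1.13, Rac2 by 1.07), and iron handling genes at 9 of 14 (Mt1 by 0.67, the haem oxygenase Hmox1 by 0.48). In the kynurenine pathway Tdo2 and Ido2 fell beside Ido1, by 1.08 and 0.36 (Ido2 turned to 0.563 with the mean of its probes), and Aadat and Qprt rose by 0.67 and 0.47. 

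Many neuronal transcripts were lower, most of them by less than 1.5-fold. Of the markers of granule and pyramidal cells 15 of 21 were called lower and 1 higher (median -0.32). At a fold of at least 1.5, 6 of the 21 were called lower, against 1.38% of all genes. Lct, a marker of dentate granule cells, was at 379, 399 and 377 in saline and 130, 122 and 139 in LPS (-1.56, SE 0.05, adjusted p = 8.32e-09). C1ql2, a synaptic organizer of mossy fibres, was at 224, 226 and 230 in saline and 136, 136 and 149 in LPS (-0.69, SE 0.04). The groups of both were apart, and Tdo2 (-1.08), desmoplakin Dsp (-0.81), Neurod6 (-0.67) and the kinase Camk2a (-0.40) were lower too. Prox1, the identity factor of granule cells, was not called (-0.07). The summed level of the list was 24160 to 24420 in saline and 19540 to 20420 in LPS. Among interneuron markers 7 of 17 were lower (41.2%, against 25.7% of all genes), 3 of them by at least 1.5-fold, and 2 higher. The largest of these falls was that of Tac1 (-1.40), which is also on the striatal list. Nos1 fell by 0.53, Pvalb by 0.43 and Sst by 0.34, and Npy rose by 0.27. 

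Metabotropic glutamate receptors and their scaffolds were called lower at 8 of 10, with Grm3 at -0.46 and Grm2 at -0.34. Ionotropic receptors were lower at 9 of 16 and higher at 2. Gria1, an AMPA receptor subunit, was at 4170, 3930 and 3700 in saline and 2450, 2740 and 2800 in LPS (-0.57, SE 0.07, adjusted p = 9.28e-05). The NMDA receptor subunit Grin2b fell by 0.39, and Grin2a was not called (-0.15, adjusted p = 0.105). On the inhibitory side GABA-A subunits were lower at 7 of 12 and higher at 2: Gabra3 fell by 0.39, and Gabra5 by 0.27, and the extrasynaptic Gabrd rose by 0.30. Slc12a5, the chloride extruder that sets the sign of GABA currents, was at 8270, 8340 and 7360 in saline and 6260, 6450 and 6330 in LPS (-0.33, SE 0.05). 

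Calcium channel genes were lower at 11 of 18, sodium and HCN channels at 6 of 11, and presynaptic genes at 15 of 27, against 0, 1 and 2 higher. Potassium channels lay nearer the background, lower at 10 of 30 (33.3%, against 25.7% of all genes) and higher at 3, with a median of -0.045. The M-current subunit Kcnq5 fell by 0.77, Scn3b by 0.66, the calcium channel subunit Cacng2 by 0.47 and the active zone protein Pclo by 0.42. Slc17a6, the vesicular glutamate transporter most abundant in thalamus, rose by 0.50. At a fold of at least 1.5, 0 calcium channel genes and 0 ionotropic receptors were called lower. In the sodium and HCN channel list 1 gene was, and in the potassium channel list 1.

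Most of these neuronal lists turned against saline 4 h. The relative medians became 0.22 for granule and pyramidal cells, 0.98 for interneurons, 1.04 for calcium channels, 0.57 for presynaptic genes and 0.44 for metabotropic receptors, with Camk2a at 1.16, Kcnq5 at 1.02 and Sst at 2.12. Lct (-0.91), Dsp (-0.77), Gria1 (-0.63), Grm3 (-1.03) and Slc12a5 (-1.45) were lower than both saline groups. The shift of striatal and thalamic genes given above moved with these lists; its part in the result was not tested.

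**Figure D5:**
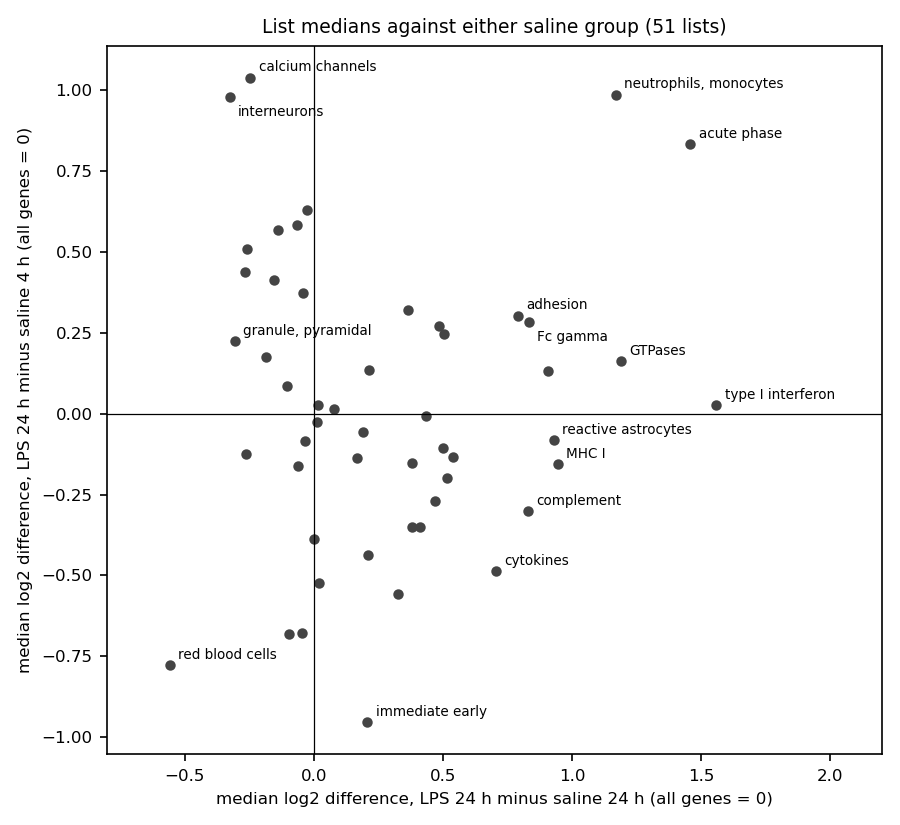
Median log2 difference of each of 51 gene lists relative to the median of all genes, with saline 24 h and with saline 4 h as control of the same LPS 24 h arrays. Acute phase genes (1.46 and 0.83) lie above 0 with either control, whereas complement (0.83 and -0.30) and calcium channels (-0.25 and 1.04) change sign.

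Immediate early and activity-regulated genes were called higher at 11 of 22 and lower at 5. Npas4, induced by calcium entry, was at 36.6, 36.6 and 33.4 in saline and 110, 110 and 100 in LPS (1.59, SE 0.05, adjusted p = 9.14e-09). Fos was at 32.4, 32.2 and 31.1 in saline and 51.2, 53.9 and 53.2 in LPS (0.73, SE 0.03). Bdnf, the neurotrophin, was at 761, 753 and 762 in saline and 1260, 1250 and 1160 in LPS (0.68, SE 0.04). LPS arrays were higher in all 3, and Nr4a1 rose by 0.59; Egr2 was at 45.8, 48.3 and 46.4 in saline and 29.6, 28.6 and 26.1 in LPS and fell (-0.74, SE 0.05). Against saline 4 h Npas4 stayed higher (0.65), and Fos (-1.9), Bdnf (-0.99), Nr4a1 (-1.84) and Egr2 (-2.9) were lower. Among neuropeptide genes galanin, an anticonvulsant peptide (Gal), was at 59.9, 61.8 and 60.1 in saline and 128, 122 and 120 in LPS (1.03, SE 0.03), and the neuropeptide Y receptor Npy2r was at 56.6, 57.3 and 52.1 in saline and 25.1, 27.5 and 31 in LPS (-0.99, SE 0.10). Both turned against saline 4 h, to -0.49 and 2.03. 

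Myelin genes were lower at 6 of 21 (28.6%, against 25.7% of all genes) and higher at 2, with Opalin at -0.55. Cell cycle genes were lower at 9 of 21 (42.9%) and higher at 3. Mki67, the proliferation antigen, was at 26, 24.7 and 24 in saline and 16.6, 15.2 and 14.9 in LPS (-0.68, SE 0.07), and it was lower against saline 4 h too (-0.99). Clock genes were lower at 9 of 18 (50%) and higher at 5, from Nfil3 (0.68) to Tef (-0.40). Respiratory chain genes were lower at 5 of 26 (19.2%, under the 25.7% of all genes) and higher at 0, led by Uqcrfs1 (-0.31). Cholesterol genes lay near the shares of all genes, lower at 7 of 23 (30.4%) and higher at 4 (17.4%, against 21.8%), the exporter Abca1 by 0.71. 

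The response at 24 h was set against that at 4 h by the difference of the LPS minus saline differences, which holds both saline groups and so carries the gap between them. It was called at 12476 genes (68.9%), higher at 41.9% and lower at 27%. The largest values belonged to vessel genes among others: the arterial transcription factor Sox17 was -3.65 at 4 h and 0.17 at 24 h, and Cldn5 was -3.09 and 0.57. In the other direction Tpbg was 3.03 at 4 h and -0.53 at 24 h, and Cdh2, N-cadherin, 3.02 and -0.23. Il1b (3.1 at 4 h and 1.65 at 24 h), Socs3 (2.63 and 1.5) and Fkbp5 (1.9 and 0.12) had smaller responses at 24 h than at 4 h. Cfb (1.47 and 3.3), Irf7 (1.58 and 2.72) and Cxcl13 (0.56 and 3.14) had larger ones, with differences between the responses of 1.83, 1.13 and 2.58.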

How the data were processed

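RNA of whole hippocampus was labelled with Cy3 and hybridised to 1-colour Agilent arrays, per the labels' protocols, 1 sample per array. The deposited scanner files hold intensity values already background-corrected by Agilent Feature Extraction (10.7.3.1 per the file headers, 9.1 per the submitters' processing notes). The deposited log2 matrix equals the quantile-normalized normexp signal (offset 50) to within 4.97e-14 and was used as an alternative.

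Here 926 outlier spots and all control spots were left out (0 were saturated), spots of a probe were averaged, and log2 signal was scaled to each array's 75th percentile. Of 41174 probes, 27594 were well above background on all 3 arrays of a 24 h group. Each gene was read from 1 probe chosen by the fixed rule, with the mean of its probes as an alternative. Probes were named through RefSeq accessions or symbols where these matched (27479 and 5478 probes, 679 by synonym), otherwise as in the file (7538). limma 3.58.1 (R 4.3.3) fitted 4 group means over 12 arrays with Benjamini-Hochberg adjustment; the step was tested on simulated data. Named genes are the 15 largest rises and falls, the 8 largest bounds, the 6 smallest adjusted p of each list, a set of reference genes and the 5 largest differences from 4 h in each direction. Members and lists were chosen with earlier results of these data known. Alternatives, among them other normalizations, filters, blocks and leaving out each array, are in the closing section. A few genes are counted in these totals but not reported here by name.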

Additional observations from a re-analysis of the deposited data

Results flagged for a closer look

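The difference between the responses to LPS at 24 h and at 4 h, tested in limma as an interaction, was largest at the following genes among those called at 24 h and well above background on at least 2 arrays of each group. Sox17 differed by 3.816 (SE 0.079, adjusted p = 1.15e-09), from -3.645 at 4 h to 0.171 at 24 h. Cldn5 differed by 3.655 (SE 0.093, adjusted p = 2.07e-09), from -3.089 at 4 h to 0.567 at 24 h. Slc52a3 differed by 3.598 (SE 0.069, adjusted p = 7.85e-10), from -2.543 at 4 h to 1.054 at 24 h. Wfdc18 differed by 3.376 (SE 0.087, adjusted p = 2.15e-09), from -2.397 at 4 h to 0.979 at 24 h. Degs2 differed by 3.322 (SE 0.096, adjusted p = 3.37e-09), from -2.883 at 4 h to 0.439 at 24 h. These 5 genes were below saline at 4 h and above it at 24 h. Tpbg differed by -3.562 (SE 0.059, adjusted p = 6.93e-10), from 3.034 at 4 h to -0.529 at 24 h. Depp1 differed by -3.308 (SE 0.095, adjusted p = 3.13e-09), from 2.956 at 4 h to -0.352 at 24 h. Cdh2 differed by -3.245 (SE 0.082, adjusted p = 2.06e-09), from 3.017 at 4 h to -0.228 at 24 h. Lmnb1 differed by -3.228 (SE 0.061, adjusted p = 6.93e-10), from 3.101 at 4 h to -0.127 at 24 h. Cpeb4 differed by -3.174 (SE 0.064, adjusted p = 9.78e-10), from 2.777 at 4 h to -0.398 at 24 h. These 5 were above saline at 4 h and slightly below it at 24 h. The 4 h and 24 h arrays come from different scan runs, and the saline groups differed at 80.7% of genes, so time and scan run cannot be told apart in these values.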

How the results depend on the processing

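The counts of genes moved by over 1.5 times with a required fold, normexp correction and saline 4 h as control. With normexp correction 1709 genes were higher and 1941 lower, 15 lists were mostly higher and 2 mostly lower, and the 24 h response minus the 4 h response was higher at 4850 and lower at 2916 genes. With a fold of at least 1.5 required the counts were 1256 and 250 genes, 11 and 0 lists, and 3795 and 2763 genes. The mean of a gene's probes left 5 lists mostly lower. With saline 4 h as control (added after seeing the data) they were 6246 and 8438 genes and 10 and 22 lists. The cause of these shifts was not tested; the fold requirement removes small changes by construction.

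Leaving out 1 of the 6 arrays at a time gave 3540 to 3834 genes higher and 4053 to 4563 lower, 25 to 27 lists mostly higher and 7 to 9 mostly lower, and for the difference of responses 7340 to 7533 higher and 4712 to 4905 lower. The replicate number is also the slide at 24 h. Deviations of same-numbered arrays correlated at 0.074, 0.104 and 0.099, and those of other pairs at -0.076 to -0.023, so every array went best with its own number, but not every pair passed 0.1 and the numbers were not taken as pairs. With the replicate block (6 arrays) 3479 genes were higher and 3207 lower, against 3750 and 3807 from the 6 arrays without it. The deposited matrix gave 2939 and 3514, and scaling to each array's median 3491 and 5571. Quantile normalization, no filter, the stricter filter, the intensity-dependent prior and an adjusted p under 0.01 kept both counts within 1.5 times.

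Of 205 genes named in the text 71 kept their direction and their side of the threshold under all settings run. With saline 4 h as control 97 turned. A gene turned when its sign changed and it was called with at least 1 of the 2 settings. Cxcl10, Plin4, Rgs9 and Zbp1 are among the 97 but were not called against saline 4 h. Genes that turned with the mean of probes were Ido2 at 0.563, Slc1a2 at 0.172 and Tjp1 at 0.002. List medians relative to all genes that turned elsewhere were the kynurenine pathway at -0.027 without saline 24 h replicate 3 (-0.027 to 0.148 over the arrays left out) and the respiratory chain at 0.019 with quantile normalization. With saline 4 h as control the relative medians that turned were -0.49 for cytokines and chemokines, -0.198 for IL-1, TNF and IL-6 receptors and feedback, -0.157 for MHC class I presentation, -0.269 for MHC class II presentation, -0.30 for complement, -0.349 for glucocorticoid-induced genes, -0.438 for metallothioneins and iron handling, -0.153 for oxidative stress and NADPH oxidase, 0.085 for circadian clock, -0.008 for matrix proteases and remodelling, -0.952 for immediate early and activity-regulated genes, 0.437 for metabotropic glutamate receptors, 0.174 for GABA-A receptor subunits, 0.411 for GABA synthesis, transport and chloride transporters, 0.509 for voltage-gated sodium and HCN channels, 1.037 for voltage-gated calcium channels, 0.566 for presynaptic vesicle and release machinery, -0.081 for reactive astrocytes, -0.058 for astrocytes and their clearance proteins, -0.35 for homeostatic microglia, -0.14 for activated microglia and macrophages, -0.558 for lymphocytes, -0.14 for pericytes and smooth muscle, 0.22 for hippocampal granule and pyramidal cells, 0.98 for interneurons, -0.105 for choroid plexus and ependyma, 0.583 for neighbouring brain regions. The other 5 of the 32 lists that changed sign started within 1 SD of 0 over the slides and went from -0.028 to 0.628 for potassium channels, 0.02 to -0.524 for adenosine receptors and metabolism, 0.002 to -0.387 for myelin and oligodendrocytes, 0.014 to -0.026 for oligodendrocyte precursors, -0.04 to 0.372 for anterior pituitary. The single genes that turned there had log2 differences of -1.123 (Aadat), 0.39 (Adora2a), -1.455 (Aif1), -0.766 (Alox5), -0.58 (Alox5ap), 0.823 (Amigo2), -0.367 (Aqp4), -0.683 (B2m), -1.545 (Bcl3), -0.993 (Bdnf), -0.846 (C1qa), 1.406 (C1ql2), -0.737 (C3), -0.324 (C4b), 0.808 (Cacng2), 1.164 (Camk2a), -0.116 (Casp4), -1.63 (Ccl5), -0.24 (Cd68), -0.735 (Cd86), -1.616 (Cd8b1), 2.433 (Cdh2), -0.562 (Cldn5), -1.095 (Ctss), -0.012 (Cxcl10), -0.466 (Cxcl16), 0.924 (Drd2), -0.202 (Fbln5), -0.796 (Fcgr1), -0.202 (Fcgr2b), -1.897 (Fos), 1.058 (Gabra3), -1.091 (Gabrd), -0.486 (Gal), -1.304 (Gfap), -0.138 (Gpnmb), 0.075 (Gpr34), -1.255 (H2-Aa), -0.006 (H2-D1), 0.144 (H2-DMa), -1.285 (H2-K1), -1.281 (H2-Ob), -0.182 (H2-Q4), -0.527 (H2-T23), -1.571 (Hif3a), -1.052 (Hmox1), -1.665 (Icam1), -1.037 (Ifi27l2a), -0.194 (Ifi44), -0.815 (Ifit3), -0.587 (Igtp), -0.449 (Iigp1), -0.402 (Il18bp), -0.572 (Irgm2), -0.565 (Itgam), -1.026 (Kcnj10), 1.023 (Kcnq5), 0.138 (Lpl), 0.856 (Mmp9), 0.861 (Mpo), -0.561 (Mt1), -0.013 (Ncf1), -0.547 (Nes), 0.863 (Neurod6), -0.831 (Nfil3), 0.909 (Nos1), 2.028 (Npy2r), -1.835 (Nr4a1), -0.664 (Oasl2), -0.127 (Osmr), 0.246 (Pclo), -0.154 (Phf11a), -0.061 (Plin4), 0.768 (Prox1), 0.622 (Ptgs2), 0.046 (Pvalb), -0.26 (Qprt), -0.024 (Rac2), 0.007 (Rgs9), -0.461 (S100a10), 0.881 (Serpina3g), 1.052 (Serpina9), 0.286 (Sh3rf2), 0.748 (Socs2), -0.305 (Socs3), -1.393 (Sox17), -0.811 (Spp1), 2.118 (Sst), 0.346 (Tac1), 0.078 (Tdo2), -0.257 (Timp1), -0.811 (Tlr2), -0.455 (Tmem119), -1.165 (Tnfrsf1b), 2.496 (Tpbg), -0.734 (Tspo) and -0.025 (Zbp1). Of these genes Mmp9, Serpina9 and Tdo2 were well above background on no saline 4 h array and Drd2, H2-Ob, Mpo and Sh3rf2 on 1 or 2, so their differences there are set against signal near background.

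Precision is limited by 3 arrays a group and by signal near background: 206 genes called higher were well above background on no saline array, and of 6758 genes read by more than 1 probe, 205 had probes that disagreed in called direction.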
